A study of Mus musculus with 6 samples.

Results

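The sites described here are the 45406 peaks on chromosomes 1 to 19 that were called after tagged thyroid hormone receptor β1 (TRβ1) was captured from the livers of mice injected with T3. They were taken from the peak list of the TRb T3 ChIP library by chromosome alone, out of 46092 peaks in that list and 98191 peaks in the 3 lists of the series. The control is the GFP PTU list, which held 103 peaks on the same chromosomes. The series has 6 samples, 3 ChIP libraries and 3 inputs, with 1 library per condition, and the inputs were not analysed here.

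Both groups consisted of mice 9 to 10 weeks old that were heterozygous for BirA, the bacterial ligase that attaches biotin to a tagged protein. All were fed a diet with propylthiouracil (PTU), which blocks the synthesis of thyroid hormone, for 3 weeks and then received an adenovirus through the tail vein. The TRb T3 group received virus encoding GFP and biotinylated TRb1 and was injected with T3 for 4 days. The GFP PTU group received virus encoding GFP alone and was injected with saline over the same 4 days. The 2 groups thus differed both in the construct and in the hormone, and the effects of these cannot be told apart in this comparison. A further group, TRb PTU, received the TRb1 virus and saline, and its 51297 peaks on chromosomes 1 to 19 are used where the construct should be the same. The receptor was supplied by a virus, so the sites are those of delivered, tagged receptor, and the labels used here give neither the strain, the dose of T3, the promoters nor the number of animals per library.

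TRβ1 is a nuclear receptor that binds DNA with or without its ligand, most often as a heterodimer with the retinoid X receptor at paired copies of a short half-site. Without hormone it recruits corepressor complexes built around NCoR and SMRT. Binding of T3 exchanges these for coactivators, and in the liver this switch governs genes of lipid, cholesterol and carbohydrate metabolism. A ChIP-seq peak marks a stretch where captured fragments pile up above background, so its width reflects fragment length and the number of close binding sites as well as the strength of binding. Positions are on mm9 and sites are given by coordinate, since no gene annotation or sequence of that build was used here. Read depth is unknown, and with 1 library a side no p-value is given. Intervals are exact (Clopper-Pearson) 95% binomial intervals over peaks, or order-statistic intervals for medians, and cover counting error only.

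The TRb T3 list exceeded the control list in number and median width of peaks. There were 441 times as many TRb T3 peaks as GFP PTU peaks, and they covered 10.3 Mb against 11444 bp. The median TRb T3 peak was 193 bp wide (interval 192 to 194), which was 2.84 times the 68 bp of the GFP PTU list (interval 60 to 77). Neighbouring TRb T3 peaks lay a median of 8345 bp apart (interval 8173 to 8564), against 9332761 bp for GFP PTU peaks. With so many more peaks on the same chromosomes, a shorter median gap had to follow from their number. Gaps under 1 kb made up 18.4% in TRb T3 and 14.3% in GFP PTU (interval 7.61 to 23.6%). All of these measures depend on depth and on the settings of peak calling, and the sources used here do not say whether the 2 lists were called alike. The narrowest peak was 132 bp wide in TRb T3 and 51 bp in GFP PTU. The difference in median width therefore cannot be told apart from one in the least width kept.

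Most TRb T3 peaks were narrow. Peaks of 150 bp to below 200 bp were the most common class, with 15708 peaks (34.6%, interval 34.2 to 35.0%), followed by 13549 peaks of 200 to below 300 bp (29.8%). A further 8626 peaks were under 150 bp (19%), 6942 measured 300 to below 600 bp (15.3%) and 581 measured 600 bp or more (1.28%, interval 1.18 to 1.39%). The widest class made up 4.17% of the covered length. The narrowest TRb T3 peaks were 132 bp wide, and 2067 peaks (4.55%) had exactly that width, so the list has a floor there. In the GFP PTU list the floor lay at 51 bp, and 96 of the 103 GFP PTU peaks (93.2%, interval 86.5 to 97.2%) were narrower than any TRb T3 peak.

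**Figure D1:**
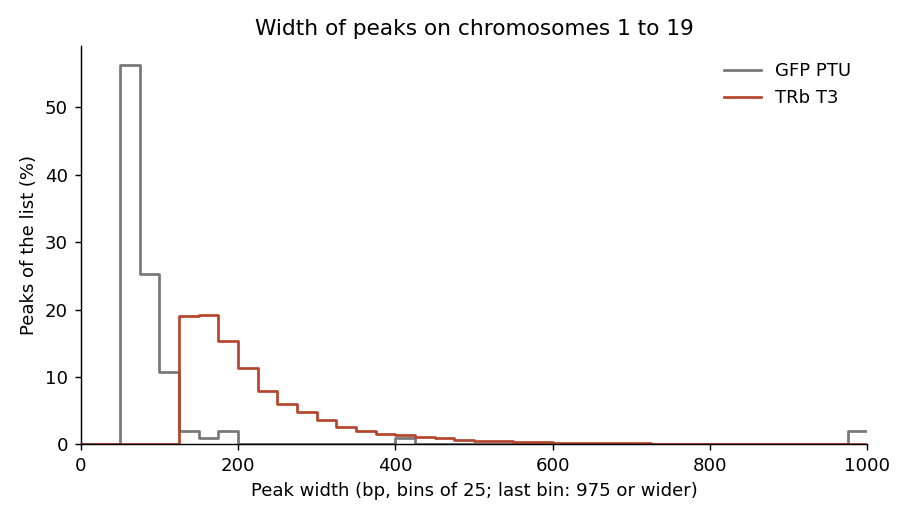
Share of peaks (%) by peak width in bins of 25 bp, for the 45406 TRb T3 peaks and the 103 GFP PTU peaks on chromosomes 1 to 19. The TRb T3 curve begins at its floor of 132 bp and falls off slowly, while most GFP PTU peaks lie below that floor.

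The caller's score rose with width within the TRb T3 list. The score is the authors' value for each peak and is used here only within its own list. For TRb T3 it is given as a percentile, where 100 is the strongest peak, and for GFP PTU as the value itself. The median percentile was 17.6 for peaks under 150 bp, 44.1, 68.3 and 81.4 for the next 3 classes and 91.5 for 600 bp or more. Of the widest class, 329 of 581 peaks (56.6%, interval 52.5 to 60.7%) belonged to the top 10% of scores, against 0 of the 8626 narrowest (interval 0 to 0.0428%). Across all 45406 peaks the Spearman coefficient of score and width was 0.67. Both values come from the same reads of 1 library, so the coefficient is a description.

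The 5 widest peaks were of mixed rank and setting. The widest lay on chromosome 1 from 24618366 to 24623023 and measured 4658 bp, with a score percentile of 83.1. It overlapped 2 GFP PTU peaks and had no other TRb T3 peak within 62.1 kb. The next 4 measured 1536 bp on chromosome 17 (from 11520692 to 11522227), 1532 bp on chromosome 12 (114662245 to 114663776), 1530 bp on chromosome 16 (22899142 to 22900671) and 1529 bp on chromosome 6 (112174461 to 112175989). No GFP PTU peak overlapped these 4, and only 0.101% of all TRb T3 peaks met one. The peak on chromosome 12 stood at the 99.4th percentile with its nearest neighbour 148 kb away, whereas that on chromosome 16 stood at the 60.0th percentile inside a cluster of 15 peaks.

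Gaps between TRb T3 peaks were very unequal. The mean gap was 52.6 kb, 6.30 times the median, because many short gaps stood beside a few very long ones. Of the 45387 gaps between neighbouring peaks, 8358 were under 1 kb (18.4%), 10303 were 1 to 5 kb (22.7%) and 5477 were 5 to 10 kb (12.1%). At the other end 4692 gaps (10.3%) reached 100 kb. No gap was shorter than 51 bp. Among peaks at or above the median score alone, the median gap was 18426 bp. Only 1380 peaks (3.04%, interval 2.88 to 3.20%) had no other TRb T3 peak within 100 kb on either side. In the GFP PTU list 12 of 84 gaps were under 1 kb (14.3%, interval 7.61 to 23.6%) and 66 were 100 kb or more (78.6%), so the few control peaks were either close together in a handful of places or far apart.

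**Figure D2:**
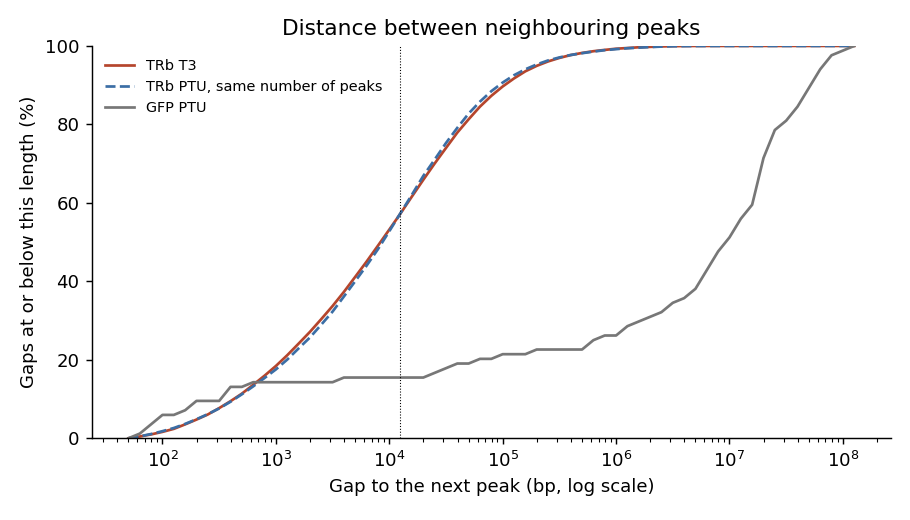
Cumulative share of gaps (%) against the gap to the next peak (bp, log scale) for TRb T3, for the same number of highest-scored TRb PTU peaks and for GFP PTU on chromosomes 1 to 19, with a dotted line at 12500 bp. The TRb T3 and TRb PTU curves lie close together, and the GFP PTU curve stays low until gaps are far longer than 100 kb.

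The 5 longest stretches between neighbouring TRb T3 peaks measured 5.54 to 7.11 Mb, with the ends of chromosomes left out. The longest ran from 39338967 to 46451246 on chromosome 7 and held 2 TRb PTU peaks and no GFP PTU peak. One of 6.08 Mb began at 145794363 on chromosome 1 and held 2 TRb PTU peaks. The other 3 were all on chromosome 14, beginning at 80884399, 93475279 and 108741003. They held 2, 1 and 0 TRb PTU peaks, and the first of the 3 held 1 GFP PTU peak. In all, 322 gaps of 1 Mb or more made up 25.6% of the summed length between TRb T3 peaks.

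Some isolated sites scored among the strongest of the list. The highest-scored peak with no other within 100 kb lay on chromosome 4 from 19238131 to 19239095, at the 99.9th score percentile, 965 bp wide and 179 kb from its nearest neighbour. The next were on chromosome 4 from 86082257 to 86082558 (302 bp wide, 218 kb from its neighbour), on chromosome 3 from 103434909 to 103435286 (378 bp, 151 kb), on chromosome 8 from 45335193 to 45335712 (520 bp, 398 kb) and the wide peak on chromosome 12 named above. All 5 were overlapped by a TRb PTU peak and by no GFP PTU peak. They were chosen by score, and 71.2% of isolated peaks in the highest of 4 score classes met a TRb PTU peak. Of all TRb T3 peaks, 0.101% met a GFP PTU peak. As a class, isolated peaks ranked low. Their median score percentile was 38.0, against 54.0 for peaks with a neighbour within 1 kb, and their median width was 175 bp against 204 bp.

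Isolated sites also differed in how many were called without T3. Over the whole list, TRb PTU peaks lay upon 27924 TRb T3 peaks (61.5%). The share was 63.5% (interval 62.7 to 64.3%) for peaks with a neighbour within 1 kb, 59.7% (58.7 to 60.8%) at 10 to 50 kb, 52.4% (49.97 to 54.8%) at 50 to 100 kb and 43.9% (41.3 to 46.6%) at 100 kb or more. Since isolated peaks also scored lower, the list was divided by score into 4 classes of nearly equal size. In the lowest of these 30.0% of the 497 isolated peaks (interval 26.0 to 34.2%) were overlapped, against 41.5% of peaks with a neighbour under 10 kb away (interval 40.4 to 42.5%). In the highest the shares were 71.2% of 208 (64.5 to 77.2%) and 85.7% of 9180 (85.01 to 86.5%). The intervals of these 2 classes were also apart in the 2 between, with 39.7 against 54.2% and 53.3 against 67.6%. For nearest neighbours 10 to 100 kb away the shares were 41.1, 54.5, 64.9 and 81.7%, from lowest to highest score. Their intervals overlapped those for under 10 kb except in the highest score class. Score classes did not equalise width, since isolated peaks had the smaller median in each (247 and 281 bp in the highest). Coverage by the 2 lists also rose together over chromosomes (Spearman coefficient 0.93 at equal numbers), so crowded places may hold more TRb PTU peaks to overlap. The part of width or of such crowding in the lower overlap of isolated peaks was not tested. The intervals count neighbouring peaks as separate. The difference itself was not tested either, because there was 1 library per condition.

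Overlap with TRb PTU peaks was more frequent for wide than for narrow TRb T3 peaks. It ran from 41.8% of peaks under 150 bp (interval 40.8 to 42.9%) through 54.2, 70.5 and 82.4% to 92.4% of those of 600 bp or more (interval 89.97 to 94.4%). A longer interval also has more room to be overlapped, and score moved with width as given above. The part of either in this gradient was not tested.

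Peaks were then joined into clusters wherever consecutive gaps were at most 12500 bp. This gave 19445 groups, of which 10176 were single peaks (22.4% of all peaks) and 2230 were clusters of 5 or more. These 2230 clusters contained 16921 peaks (37.3%, interval 36.8 to 37.7%), and 428 of them, with 10 or more peaks each, contained 5590 (12.3%). The share in clusters of 5 or more depended on the linking distance, with 15.3% at 5 kb and 58.7% at 25 kb, and was 17.2% among peaks at or above the median score. Clusters of 5 or more had a median of 6 peaks and a median span of 21.1 kb, of which peaks covered a median of 7.63%. Together they spanned 53.7 Mb, 2.24% of the length between the first and last peaks of the 19 chromosomes. In the GFP PTU list 84 of 103 peaks were single and 1 cluster, of 8 peaks on chromosome 2, reached that size.

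Peaks in larger clusters scored somewhat higher. The share in the top 10% of scores was 5.92% for single peaks (interval 5.47 to 6.39%), 8.86% in pairs, 10.4% in clusters of 3 or 4, 12.2% in clusters of 5 to 9 and 14.1% in clusters of 10 or more (interval 13.2 to 15.0%). The median percentile moved less, from 43.7 for single peaks to 54.1 for the largest clusters. Of the 2230 clusters, 1319 held at least 1 peak from the top 10% (59.1%). Next-door peaks hardly resembled each other in rank, with Spearman coefficients of 0.04 over 8358 pairs less than 1 kb apart and 0.03 over 10303 pairs 1 to 5 kb apart. Strong and weak peaks stood side by side within clusters.

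**Figure D3:**
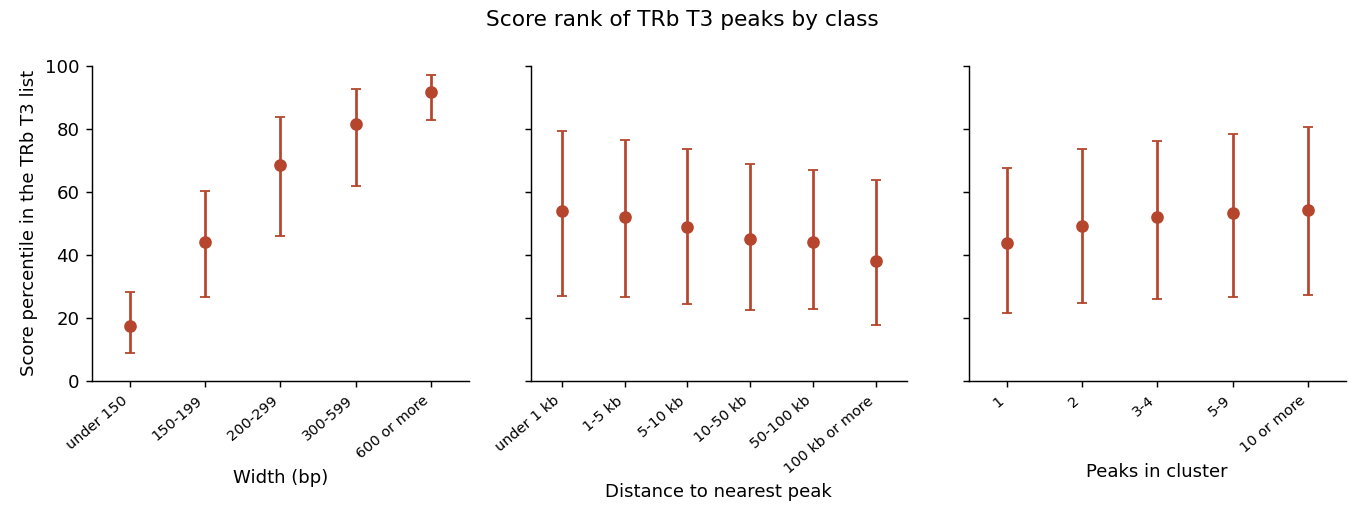
Score percentile within the TRb T3 list by width (bp), by distance to the nearest peak and by number of peaks in the cluster. Points are medians and bars run from the lower to the upper quartile over peaks. The medians climb from 17.6 to 91.5 over the width classes and move between 38.0 and 54.1 over the others.

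The fullest cluster lay on chromosome 14 from 26270663 to 26360073, with 39 peaks in 89.4 kb, a mean gap of 2076 bp and 11.8% of its length covered. It was also strong, with a median score percentile of 73.6 and 8 peaks in the top 10%. TRb PTU peaks overlapped 35 of the 39 (89.7%), and 1 GFP PTU peak lay inside it. The second, on chromosome 19 from 5793172 to 5851649, was denser, with 34 peaks in 58.5 kb, a mean gap of 1461 bp and 17.6% of its length covered, and 3 of its peaks were 600 bp or wider. The others were on chromosome 2 from 163351515 to 163426086 and on chromosome 8 from 129038052 to 129150255, with 29 peaks each, and on chromosome 5 from 66419557 to 66505777, with 28. In these 4 clusters 72.4 to 76.5% of the peaks were overlapped by TRb PTU peaks, and none held a GFP PTU peak. Such absence was usual, since only 6 of the 2230 clusters of 5 or more had a peak at a GFP PTU site.

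The cluster on chromosome 8 had the longest span, 112 kb. It was followed by clusters on chromosome 12 from 88194206 to 88297111 (25 peaks in 103 kb), on chromosome 6 from 31011820 to 31111455 (22 in 99.6 kb), on chromosome 15 from 58810462 to 58909943 (23 in 99.5 kb) and on chromosome 5 from 64266176 to 64360980 (20 in 94.8 kb). The last of these had the lowest overlap of the clusters named, with 9 of its 20 peaks met by a TRb PTU peak (45.0%). The share was 65.0% over all peaks in clusters of 10 or more. The value rests on 20 peaks, and its difference from that share was not tested. The cluster on chromosome 15 held 3 peaks of 600 bp or more and 4 from the top 10% of scores.

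On the scale of 1 Mb, TRb T3 peaks were concentrated in part of the genome. Of 2413 windows on a fixed grid, 285 (11.8%) held no peak and the median window held 13. The fullest 10% of windows, 241 in number, held 14449 peaks (31.8%, interval 31.4 to 32.3%), and 449 windows (18.6%) held 50% of them. Windows were ranked by these same counts, so the fullest 10% had to hold more than 10% of peaks. The interval takes the windows as given and does not measure how concentrated the peaks were. Most peaks, 124 of TRb T3 and 147 of TRb PTU, fell in the window on chromosome 2 from 167000001 to 168000000. It was followed by chromosome 8 from 129000001 to 130000000 (121 against 110) and chromosome 10 from 80000001 to 81000000 (107 against 201). Next came the window of chromosome 4 that ends at 61000000 (102 against 29) and chromosome 10 from 127000001 to 128000000 (100 against 120). None of the 5 windows held a GFP PTU peak, but with 103 such peaks over 2413 windows most windows had to be without one.

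Coverage differed 1.96 times between the chromosomes with the most and the least. Coverage is the summed width of TRb T3 peaks per Mb between the first and last TRb T3 peak of a chromosome, and it was 4.29 kb per Mb over chromosomes 1 to 19, or 0.429% of that length. Chromosome 19 had the highest value, 6.41 kb per Mb from 1632 peaks, and chromosome 11 the next, 5.90 kb per Mb from 3090 peaks. Chromosome 4 followed at 4.81 and chromosome 8 at 4.76 kb per Mb. Chromosome 14 had the lowest, 3.27 kb per Mb from 1701 peaks, with chromosome 3 at 3.31 and chromosome 1 at 3.50 kb per Mb. The order largely followed the number of peaks. Peaks per Mb ran from 14.8 on chromosome 14 to 28.0 on chromosome 19, while the median width stayed between 188 bp on chromosome 17 and 197 bp on chromosome 16.

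**Figure D4:**
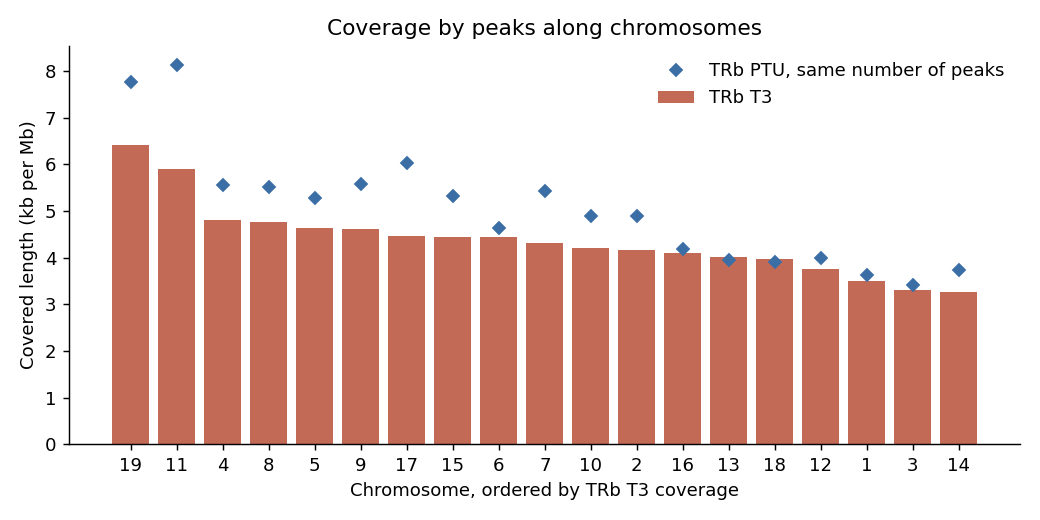
Length covered by peaks (kb per Mb) on each of chromosomes 1 to 19, as bars for TRb T3 and diamonds for the same number of highest-scored TRb PTU peaks, in the order of the TRb T3 values. Chromosomes 19 and 11 lead in both, and the diamonds stand farthest above the bars on chromosomes 11 and 17.

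Over the 19 chromosomes, peaks per Mb and the share of peaks in clusters of 5 or more had a Spearman coefficient of 0.82, a description over values that both rest on the number of peaks. Single chromosomes departed from this order. Chromosome 8 had the shortest median gap, 6635 bp, and the largest share of peaks in clusters of 5 or more, 45.3% (interval 43.4 to 47.2%), above chromosome 19 with 42.0% (39.6 to 44.4%) and chromosome 4 with 41.5% (39.7 to 43.2%). The intervals of chromosome 8 and chromosome 19 overlap. Chromosome 13 had the longest median gap, 11447 bp, and the smallest share in clusters, 29.0% (27.0 to 31.0%), although its 17.7 peaks per Mb were not the fewest. Chromosome 14, lowest in coverage, had 35.2% of its peaks in clusters (32.9 to 37.5%).

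Peaks were also placed unevenly along chromosomes. When each chromosome was divided into 3 equal parts between its first and last peak, the part nearest position 1 held 28.2% of peaks, the middle 31.9% and the far part 39.99%. The far part was the fullest on 10 of 19 chromosomes, the middle on 5 and the near part on 4. On chromosome 4 the far part held 1734 of 3203 peaks (54.1%), and on chromosome 15 it held 1019 of 1955 (52.1%). The reverse held on chromosome 16, with 889 of 1680 peaks in the near part (52.9%), and on chromosome 14, with 222 of 1701 in the far part (13.1%), where the stretches without a peak that began at 93475279 and 108741003 lay. The first TRb T3 peak of chromosome 14 began at 8641187, while the first TRb PTU peak there began at 3333106. On the other 18 chromosomes the first TRb T3 peak began between 3003877 and 4763035.

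Since TRb PTU livers received the same construct, their peaks show which features of the list were present without T3. The full TRb PTU list was more crowded, with a median gap of 7429 bp and 41.9% of peaks in clusters of 5 or more. It was also longer, and the 45406 highest-scored TRb PTU peaks gave a median gap of 8685 bp and 37.3% in such clusters (interval 36.9 to 37.8%), against 8345 bp and 37.3% in TRb T3. Width differed in the same direction in both forms. The median was 210 bp in the full TRb PTU list and 219 bp with equal numbers, against 193 bp in TRb T3. Peaks of 300 bp or more made up 23.8% of the full TRb PTU list (interval 23.4 to 24.2%) and 26.3% with equal numbers (25.9 to 26.7%). In TRb T3 they made up 16.6% (16.2 to 16.9%). The choice of equal numbers drops only low-scored TRb PTU peaks, and the share under 150 bp thereby fell from 14.6 to 11.0%. Values with equal numbers are thus tilted toward wide TRb PTU peaks. With equal numbers TRb T3 peaks covered 0.869 times the length, a ratio that carries the same tilt. By chromosome this ratio ran from 0.726 on chromosome 11 and 0.739 on chromosome 17 to 1.01 on chromosome 18 and 1.02 on chromosome 13. Over the 19 chromosomes the coverage of the 2 lists had a Spearman coefficient of 0.93, a description over points that share chromosome composition.

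Few TRb T3 peaks lay where the GFP control also had one. Of the 45406 TRb T3 peaks, 46 overlapped a GFP PTU peak, which is 0.101% (interval 0.0742 to 0.135%). Conversely 51 of the 103 GFP PTU peaks, 49.5% (interval 39.5 to 59.5%), were overlapped by a TRb T3 peak. With so few control peaks, the first share had to be low. Among TRb T3 peaks at or above the median score, 27 lay at control sites and 32.0% of GFP PTU peaks were met. GFP PTU peaks usually lay inside the TRb T3 peak they met, in 44 of 52 overlapping pairs, and were narrower, with a median of 26.3% of its width. Their midpoints were a median of 42 bp apart. The least width was 51 bp in GFP PTU and 132 bp in TRb T3, so these 3 values largely follow from the widths of the lists.

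TRb T3 peaks at control sites were spread over the whole range of scores. Their percentiles ran from 0.22 to 99.9 with a median of 59.6, 7 of the 46 belonged to the top 10%, and 19 lay below the 50th percentile. Their median width was 228 bp. Single peaks made up 18 of the 46 (39.1%, interval 25.1 to 54.6%), against 22.4% of all TRb T3 peaks, and 8 lay in clusters of 5 or more (17.4%, interval 7.82 to 31.4%), against 37.3%. Of these 8, 3 lie at 1 place on chromosome 14, and another 3 of the 46 form a run on chromosome 2. The intervals count such neighbours as separate sites. TRb PTU peaks also overlapped 43 of the 46 (93.5%, interval 82.1 to 98.6%), against the 61.5% of all TRb T3 peaks. By width, control sites were met by 3 of 8626 peaks under 150 bp (0.0348%, interval 0.00717 to 0.102%) and by 4 of 581 peaks of 600 bp or more (0.688%, interval 0.188 to 1.75%). Per Mb covered there were 2.51, 4.42, 5.85, 2.96 and 9.33 such peaks from the narrowest to the widest class, against 4.47 for all widths. These values rest on 3, 12, 19, 8 and 4 peaks, too few to settle whether the rate changed with width. Of the 4 peaks in the widest class, those of 1052 and 1071 bp lie in 1 run on chromosome 2.

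**Figure D5:**
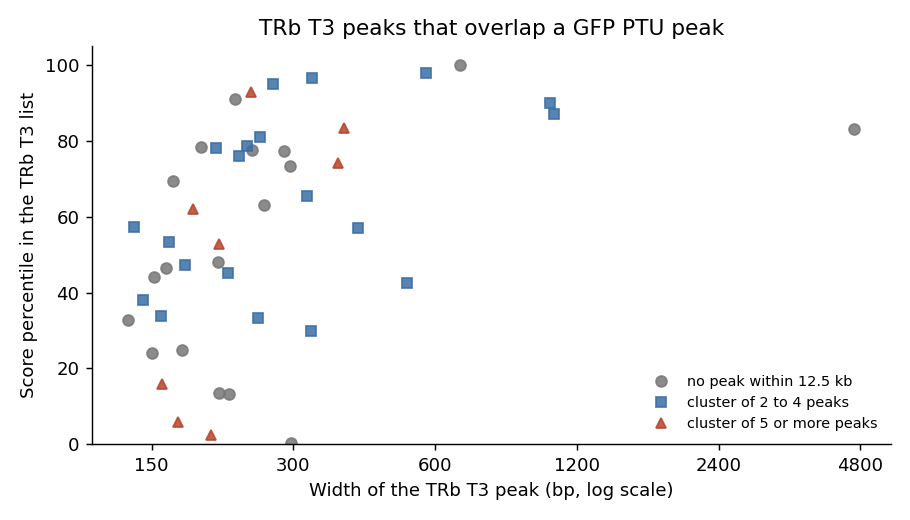
Score percentile within the TRb T3 list against peak width (bp, log scale) for the 46 TRb T3 peaks that overlap a GFP PTU peak, marked by the number of peaks in their cluster. The points spread from the bottom of the list to the 99.9th percentile, and 18 of them are single peaks.

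The highest-scored TRb T3 peak at a control site lay on chromosome 17 from 28897693 to 28898370. It was 678 bp wide and at the 99.9th percentile, and the control peak inside it was 51 bp wide with a score of 2.12 in its own list, near the lowest of that list. The next were on chromosome 1 from 95375382 to 95375956 (97.9th percentile) and on chromosome 3 from 51037399 to 51037726 (96.6th). Then came chromosome 19 from 37625196 to 37625466 (95.1st) and chromosome 3 from 51007906 to 51008149 (92.8th), the latter in a cluster of 5 peaks. The control peaks at these 4 sites were 51 to 128 bp wide.

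Both lists were crowded at 2 places, chosen after their values were seen, and differed in shape there. On chromosome 2, 8 GFP PTU peaks of 55 to 159 bp lay within 3 TRb T3 peaks between 22442815 and 22445763. Of these 3, those of 1052 and 1071 bp stood at the 90.03rd and 86.9th percentiles and the one of 412 bp at the 57.0th. On chromosome 14 the reverse was seen. The GFP PTU peaks at 18758368 to 18759802 and 18759857 to 18761850 were 1435 and 1994 bp wide, and another at 18761916 to 18762336 was 421 bp wide and met no TRb T3 peak, while the 3 TRb T3 peaks there were 158 to 201 bp wide and among the weakest of their list, at the 2.31st, 15.9th and 5.93rd percentiles.

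The other 52 GFP PTU peaks had no TRb T3 peak upon them. They lay a median of 8.32 kb from the nearest TRb T3 peak, with 6 less than 1 kb and 29 less than 10 kb away, and the farthest at 297 kb. Of these 52, 44 were overlapped by a TRb PTU peak. The highest-scored were on chromosome 17 from 23013430 to 23013483 (score 19.70 in the GFP PTU list, 136644 bp from a TRb T3 peak), on chromosome 6 from 43286275 to 43286325 (15.13, 1213 bp) and from 47689954 to 47690012 (15.10, 71411 bp), on chromosome 2 from 173901680 to 173901800 (14.13, 84278 bp) and on chromosome 1 from 94370355 to 94370462 (12.68, 10025 bp). All 5 were overlapped by a TRb PTU peak. GFP PTU peaks with and without a TRb T3 peak had similar median scores, 5.87 and 4.98, and median widths of 68 and 69 bp. On chromosomes 7 and 18, with 1 and 3 GFP PTU peaks, none was met.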

How the data were processed

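The data are peak lists from streptavidin ChIP-seq of mouse liver, 1 per ChIP library, and the inputs were not analysed here. Per the submitters' processing notes, Bowtie, SAMtools and MACS2 were used on mm9. The sources used here give no versions, settings or control for calling. Each deposited list gives a chromosome, start, end, name and score per peak. The score is the authors' value, of unstated kind, and serves as a rank within its list. Depth is unknown. Samples were grouped by title, and peaks on chromosomes 1 to 19 were kept. Overlap meant at least 1 bp, gaps count the bases between neighbouring peaks, and clusters joined gaps of at most 12500 bp. Equal numbers means the highest-scored TRb PTU peaks. Positions are 1-based. Regions named are the 5 most extreme of each kind (width, cluster size and span, gap, and score among isolated peaks, peaks at GFP PTU sites and GFP PTU peaks without a TRb T3 peak). The members and classes were chosen with earlier results of these data known. Gene positions and receptor elements were planned but left out, since neither sequence nor annotation of mm9 was used here. The code was tested on simulated data. Python 3.11.15, numpy 2.4.6, pandas 2.3.3, scipy 1.17.1 and matplotlib 3.10.9 were used.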

Additional observations from a re-analysis of the deposited data

Results flagged for a closer look

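Peaks also stood outside chromosomes 1 to 19, above the number in the GFP control. Chromosome X held 588 TRb T3 peaks against 3 GFP PTU peaks. They covered 0.733 kb per Mb, below the 3.27 kb per Mb of chromosome 14, and had a median width of 175 bp. The unplaced, Y and mitochondrial sequences held 98 TRb T3 peaks against 1 GFP PTU peak, with a median width of 188 bp.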

How the results depend on the processing

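No paired analysis was possible because only 1 library represents a condition. Of 36 alternative values, 18 stayed within the interval (or, for a count, within 1.5 times) of the reported one. Keeping TRb T3 peaks at or above the median score, which removes peaks by construction, gave a median width of 236 bp (193 before), 28.2% of peaks of 300 bp or more (16.6% before), a median gap of 18426 bp (8345 before), 17.2% of peaks in clusters of 5 or more (37.3% before), 27 TRb T3 peaks at GFP PTU sites (46 before) and 32.0% of GFP PTU peaks met (49.5% before). Merging peaks within 500 bp gave 201 bp, 24.7%, 11504 bp and 29.4% for the first 4 of these. Midpoint distances gave a median of 8579 bp. Linking gaps of 5 and 25 kb put 15.3 and 58.7% of peaks in clusters of 5 or more, and requiring 10 peaks left 12.3%. Equal numbers changed TRb PTU from 210 to 219 bp in width, from 7429 to 8685 bp in gap and from 41.9 to 37.3% in clusters. Windows of 500 kb, chosen after seeing the data, put 36.5% of peaks in the fullest 10% (31.8% before). The coverage ratio between chromosomes was 1.96 as reported and at most 2.04 otherwise, but with the score filter the lowest chromosome was 3 rather than 14. It was judged against a range for a ratio (1.83 to 2.10), which is not an interval of the kinds described at the start. Unknown depth limits every number of peaks.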

Other observations

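A block on chromosome 4, with TRb T3 peaks from 60004079 to 61476926 and already known to be crowded after T3, held 146 TRb T3 peaks, 42 TRb PTU peaks and 0 GFP PTU peaks. The 103 GFP PTU peaks were too few for their absence to set the block apart. Its crowding took the form of many mid-sized clusters. The 146 peaks formed 33 groups, the largest of 10 peaks, and 119 of them (81.5%) lay in clusters of 5 or more. Gaps of 3 to 7.5 kb made up 55 of its 145 gaps (37.9%), against 15.1% of all TRb T3 gaps. That band includes the block's own median gap of 4668 bp. Because the block was chosen as crowded, many short gaps and a high share in clusters follow from the choice. Neither is separate evidence about the block. Its peaks had a median width of 229 bp and a median score percentile of 58.5. Leaving the block out moved neither the median gap nor the share of peaks in clusters beyond its interval.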
